A study of Mus musculus with 4 samples.

Results

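Chromatin accessibility was described at the promoters of the ribosomal protein genes in WT and TCKO primary osteoblasts. The members were the protein-coding genes on chromosomes 1 to 19 whose symbol is *Rpl* or *Rps* followed by a number, with at most a letter and further digits after it, in the GENCODE M21 annotation. This gave 75 genes, 45 of the large and 30 of the small ribosomal subunit, on 18 chromosomes. A region of the deposited count table belonged to a promoter if its midpoint lay within 1 kb of any annotated transcript start of the gene. Of the 75 genes, 73 had such a region, with 102 regions among the 255864 of the table and among the 27613 promoter regions of all 16078 protein-coding genes that had one. The symbol rule uses no reads, though the group was chosen with earlier results of these data known.

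The assay was ATAC-seq, in which a transposase cuts open chromatin and tags the cut ends, so that the number of reads over a region measures how accessible it was. The cells were calvarial osteoblasts, the bone-forming cells of the skull, from 3-day-old C57BL/6 mice. TCKO mice carried Prx1-Cre, whose promoter is active in mesenchymal cells, and floxed alleles of *Tet1*, *Tet2* and *Tet3*, which encode the dioxygenases that oxidise 5-methylcytosine, and WT mice were their controls. The labels listed 2 samples per genotype, 4 in all, while a protocol text spoke of 3 repeats. Reads of all samples of a genotype were merged into 1 column, which leaves no measure of the variation among mice. No test was therefore made, and every difference is between 2 merged columns. The WT column summed to 56898657 counts and the TCKO column to 34608167, so TCKO counts were multiplied by 1.64 to bring both totals to the same value.

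Ribosomal protein genes encode the protein subunits of the cytosolic ribosome. They are transcribed in every growing cell, their products are needed in matched amounts, and their promoters are usually open CpG islands, for which reason they are often taken as housekeeping genes. Many of their transcripts start with a run of pyrimidines, the terminal oligopyrimidine tract, through which growth signals act on their translation. Mutations of some of them cause Diamond-Blackfan anaemia, and mutations of a few others disturb the skeleton. Here they also served as a housekeeping benchmark of the scaling between the 2 columns.

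The sequences around the start are shown for 5 of the 6 genes with the most promoter reads and for the genes at the ends of the range of TCKO to WT ratios (*Rpl39l* and *Rpl30* lowest, *Rpl10a* and *Rpl19* highest). Each runs from 80 bases before the annotated start to the 20th base of the transcript, in the sense of the gene, read from GRCm38. Capitals mark the longest run of pyrimidines that touches the 10 bases on either side of the start. On the plus strand lay *Rps19* chr7:24884291-24884390, *Rps21* chr2:180257297-180257396, *Rpl10a* chr17:28328391-28328490, *Rpl39l* chr16:10170148-10170247, *Rpl19* chr11:98026844-98026943. On the minus strand lay *Rpl13a* chr7:45128742-45128841, *Rpl7* chr1:16104643-16104742, *Rpl30* chr15:34443621-34443720.
Rps19: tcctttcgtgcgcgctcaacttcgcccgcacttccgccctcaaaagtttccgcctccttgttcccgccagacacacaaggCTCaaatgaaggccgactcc
Rpl13a: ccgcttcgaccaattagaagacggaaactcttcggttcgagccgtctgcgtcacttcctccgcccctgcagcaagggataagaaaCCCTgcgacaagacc
Rpl7: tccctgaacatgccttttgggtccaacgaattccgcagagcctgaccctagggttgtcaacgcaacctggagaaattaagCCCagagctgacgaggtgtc
Rps21: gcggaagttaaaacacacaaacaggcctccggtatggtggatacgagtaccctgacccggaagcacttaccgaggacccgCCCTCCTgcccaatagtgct
Rpl10a: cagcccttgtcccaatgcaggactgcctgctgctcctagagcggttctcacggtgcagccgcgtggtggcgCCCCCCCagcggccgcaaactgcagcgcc
Rpl39l: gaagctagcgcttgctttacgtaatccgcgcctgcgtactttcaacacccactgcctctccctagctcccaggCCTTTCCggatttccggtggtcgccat
Rpl30: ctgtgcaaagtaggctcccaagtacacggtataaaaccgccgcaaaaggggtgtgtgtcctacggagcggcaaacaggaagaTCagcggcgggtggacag
Rpl19: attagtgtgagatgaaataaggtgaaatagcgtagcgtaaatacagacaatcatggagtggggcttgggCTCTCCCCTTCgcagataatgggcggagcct
The runs differed in length, from 11 bases in *Rpl19* and 7 in *Rps21* to 2 in *Rpl30*. *Rps21* held the letters CCGGAAG, the core that ETS factors bind, at positions -86 and -24, counted without a 0 from the first transcript base, of which the match at -24 lies whole within the stretch shown. *Rpl39l* held the same letters at -146 and -92, outside the stretch shown, and *Rpl30* held the TATA letters at -51. None of the letters searched was found in the promoter of *Rpl7*.

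Over all promoter regions of the group, 96369 reads were counted in WT and 52720 in TCKO. These were 0.169% of all WT counts (95% Wilson interval 0.168% to 0.170%) and 0.152% of all TCKO counts (0.151% to 0.154%). After scaling, the pooled TCKO to WT ratio was -0.15 on the log2 scale (-0.17 to -0.14). Each interval on a ratio was made the same way, from the TCKO part of the reads of both columns. Such an interval takes in counting error alone, with each read taken as a separate molecule. Reads that carry no molecular identifier may be copies of 1 molecule, in which case the interval is too narrow. The interval also says nothing of the spread between mice.

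No ribosomal protein gene was 2-fold lower or higher in TCKO on its summed promoter counts (0 of 73 in each direction). Over all protein-coding genes, 0.541% were at least 2-fold lower and 1.51% at least 2-fold higher. The ratios ran from -0.72 in *Rpl39l* to 0.18 in *Rpl10a* with a median of -0.17, and the 25th and 75th percentiles were -0.25 and -0.05. The ratio was below 0 in 62 of the 73 genes (84.9%), against 66.3% of all protein-coding genes with promoter regions. The interval lay wholly below 0 for 40 genes (54.8%) and wholly above 0 for 1 gene, *Rpl10a*, whereas the background shares were 37.9% and 13%. The group as a whole thus stood a little lower in TCKO than in WT, by less than the 2-fold cutoff that the study applied to peaks.

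**Figure D1:**
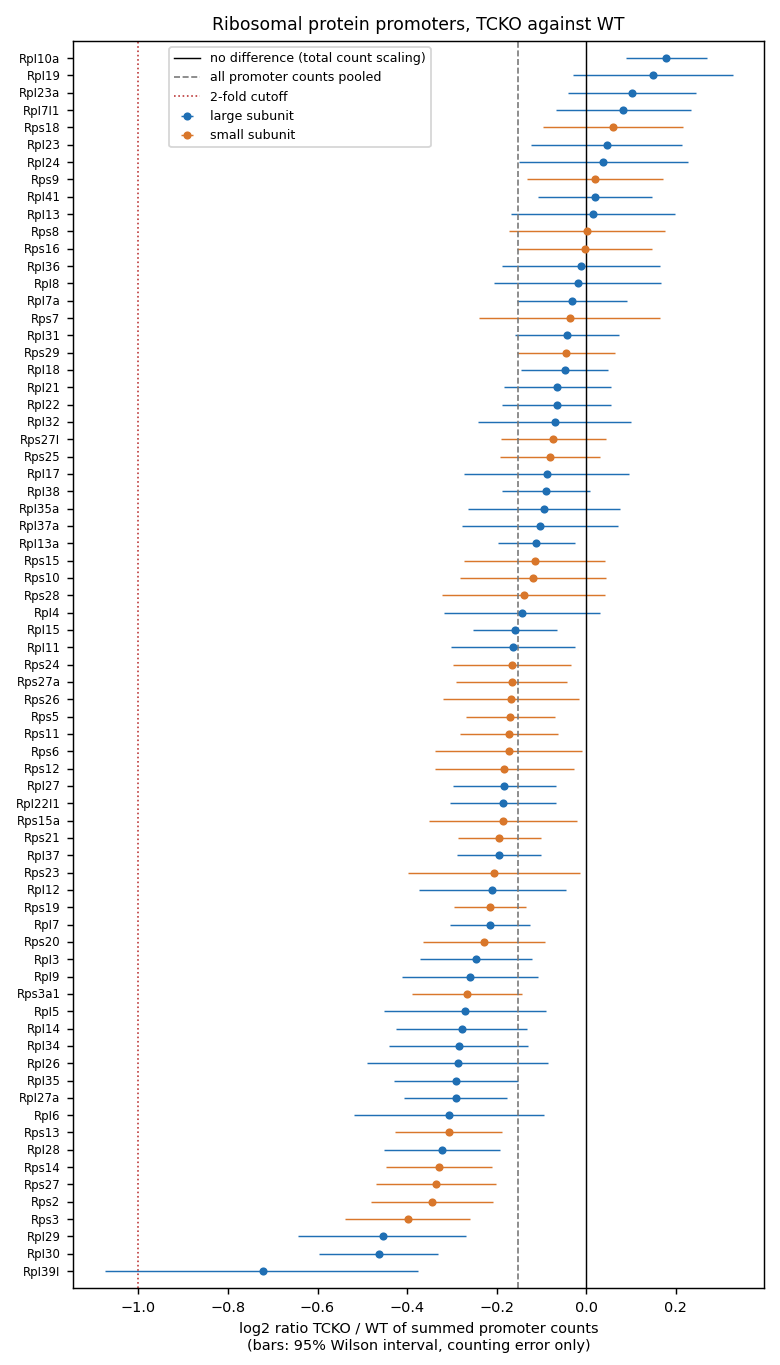
The x axis gives the log2 ratio of scaled TCKO to WT promoter counts and the y axis 71 of the 73 genes in order of their ratio, with large subunit genes in blue and small subunit genes in orange. Bars are 95% Wilson intervals for counting error, the dashed line is the pooled ratio of -0.15, the dotted line is the 2-fold cutoff, and 60 of the 71 lie left of 0.

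At the level of single regions, 1 of the 102 passed the 2-fold cutoff towards lower accessibility in TCKO and 0 passed it in the other direction. Of all promoter regions 1.71% were lower and 3.83% higher by this cutoff, and of the 255864 regions together 4.51% were lower and 12.3% higher. The median log2 ratio was -0.15 over the ribosomal protein regions, -0.06 over all promoter regions and 0.06 over all regions. The single region past the cutoff covered the start of *Rpl39l*.

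The promoters with the most reads were those of *Rps19*, *Rpl13a* and *Rpl7*. *Rps19*, the gene most often mutated in Diamond-Blackfan anaemia, had 3515 WT and 1842 TCKO counts before scaling (log2 ratio -0.21, -0.30 to -0.13). *Rpl13a*, whose product also takes part in a complex that silences translation of inflammatory messages, had 3032 and 1707 counts (-0.11, -0.20 to -0.03). *Rpl7* had 2944 and 1542 counts over 2 regions (-0.22, -0.30 to -0.13). All 3 intervals lay below 0, but after a loess fit of ratio against mean count the values were -0.017 for *Rps19*, 0.08 for *Rpl13a* and -0.07 for *Rpl7*.
*Rps21* had 2700 and 1435 counts (-0.19), *Rpl37* had 2599 and 1381 (-0.19) and *Rpl15* had 2567 and 1398 (-0.16). *Rpl18* had 2305 and 1356 counts (-0.05), and *Rpl38* had 2276 and 1300 (-0.09). Of the 10 genes with the most reads, 9 had ratios below 0, and *Rpl10a* was the exception. Of the 2283 protein-coding genes with at least as many reads (3576 over both genotypes), 91.2% were below 0, so this count is near the background.
Per kb of region and 1000000 counts, levels were highest for *Rpl27*, at 60.6 in WT and 53.3 in TCKO, and *Rps19* stood at 56.1 and 48.3. The lowest level was that of *Rpl39l*, at 7.37 in WT and 4.46 in TCKO.

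*Rpl39l* had the lowest ratio. It is a retrotransposed copy of the X-linked *Rpl39* that is used mainly in male germ cells, and its promoter had the fewest reads of the group, 242 in WT and 89 in TCKO over 2 regions (-0.72, -1.08 to -0.38). The 2 regions differed. The region over the start (chr16:10170034-10170302) had 153 WT counts against 29 TCKO counts (log2 ratio -1.66, -2.25 to -1.11). The other lay upstream, with its midpoint at -798 bp from the start (chr16:10169277-10169584), and had 89 and 60 counts (0.15, -0.32 to 0.62). The lower value of *Rpl39l* thus came from the region over its start, where the WT peak list had a summit at -23 bp from the start with a fold enrichment of 7.02 and the TCKO list had none. The parent gene *Rpl39*, outside the members because it is X-linked, had 882 and 529 counts (-0.02, -0.18 to 0.14).

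The other genes at the low end had far more reads. *Rpl30*, of the large subunit, had 1465 counts in WT and 646 in TCKO (-0.46, -0.60 to -0.33). *Rpl29*, loss of which makes mice small, had 735 and 326 (-0.45, -0.64 to -0.27). *Rps3*, which also takes part in DNA repair, had 1305 and 602 (-0.40, -0.54 to -0.26), and *Rps2* had 1323 and 634 (-0.34, -0.48 to -0.21). Neighbours in this order had overlapping intervals, so their order is not settled by the counts.
Each of these 4 genes had a single promoter region. The regions of *Rpl30* (chr15:34442936-34443885), *Rpl29* (chr9:106428937-106429867) and *Rps3* (chr7:99483211-99484025) were also the 3 lowest among the 79 regions with at least 200 counts in either genotype.

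At the high end, *Rpl10a* had 2389 counts in WT and 1644 in TCKO (0.18, 0.09 to 0.27), a direction that turned without scaling (-0.54) and with the background depth described below (-0.43). Its region over the start (chr17:28327640-28328735) had 2270 and 1504 counts (0.12, 0.03 to 0.22), and a narrow region 1210 bp into the gene (chr17:28329606-28329756) had 119 and 140 (0.95, 0.60 to 1.30). The interval of the region over the start lay above 0 as well. *Rpl19* had 620 and 418 counts (0.15, -0.03 to 0.33), *Rpl23a* 994 and 649 (0.10, -0.04 to 0.24), *Rpl7l1* 888 and 572 (0.08, -0.07 to 0.23) and *Rps18* 841 and 533 (0.06, -0.10 to 0.22). The intervals of these 4 genes included 0, so at this depth they could not be told from the scaled WT value.
Among regions with at least 200 counts the highest ratio was that of a region 2483 bp into *Rpl18*, at chr7:45717708-45718172, which also lies at a start of the neighbouring *Sphk2*, a sphingosine kinase gene. It had 346 counts in WT and 268 in TCKO (0.35, 0.12 to 0.58). The region over the *Rpl18* start, which also lies within 1 kb of a start of *Sphk2*, had 1862 and 1014 (-0.16, -0.27 to -0.05). The next regions were those of *Rpl19* and of an inner part of *Rpl7* (0.14, -0.13 to 0.41).

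Like-named paralogs differed among themselves. *Rpl10l*, a germ-line copy of *Rpl10*, and *Rpl3l*, a striated muscle copy of *Rpl3*, had no region within 1 kb of a start and gave no value. *Rpl22l1*, which can take the place of *Rpl22*, had 1633 counts in WT and 873 in TCKO (-0.19, -0.30 to -0.07). *Rps27l*, a target of p53, had 1607 and 929 (-0.07, -0.19 to 0.04). These 2 and *Rpl7l1* lay within the range of the other members, and *Rpl39l* below it. Without the like-named paralogs the median over genes stayed at -0.17 (69 genes).

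A list of 11 genes was taken from among those mutated in Diamond-Blackfan anaemia and does not hold all of them. All 11 had ratios below 0, from -0.29 in *Rpl26* to -0.04 in *Rps7*, against 84.9% of the members and 66.3% of all protein-coding genes. After loess 10 did, with *Rps29* at 0.07, against 50 of the 73 members. The interval was wholly below 0 for 6 of the 11 (54.5%), near the 54.8% of the members, against 37.9% of all genes. Their median was -0.16. *Rps19*, *Rpl5* (732 and 369 counts, -0.27), *Rpl11* (1186 and 644, -0.16), *Rps24* (1308 and 709, -0.17) and *Rps26* (985 and 533, -0.17) were among them. *Rpl5* and *Rpl11* encode proteins of the particle that binds MDM2 when ribosome assembly is disturbed. The intervals of *Rps10* (836 and 468, -0.12), *Rpl35a* (762 and 434, -0.09) and *Rps29* (1780 and 1049, -0.05) included 0, as did that of *Rps7* (523 and 310).

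Of the 4 genes whose mutations disturb the skeleton, *Rpl29* was the lowest, as given above. *Rpl38*, mutated in Tail-short mice with a changed axial skeleton, had a ratio of -0.09 (-0.19 to 0.01). *Rpl24*, mutated in Belly spot and tail mice, had 578 and 361 counts (0.04, -0.15 to 0.23). *Rpl13*, mutated in a human spondyloepimetaphyseal dysplasia, had 626 and 385 counts (0.02, -0.17 to 0.20). Only *Rpl29* among these 4 had an interval that excluded 0.

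The subunits differed little. Promoters of the 43 large subunit genes with regions summed to 56546 WT and 31280 TCKO counts, pooled to a log2 ratio of -0.14 (-0.16 to -0.12). Those of the 30 small subunit genes summed to 39823 and 21440, a pooled ratio of -0.18 (-0.20 to -0.15). The large subunit ratio was higher by 0.04 (0.01 to 0.07) by counting error, while the standard deviation over single genes was 0.15. Medians over genes were -0.14 and -0.17.

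The spread among the 73 genes was wider than the counting error computed with each read taken as a separate molecule. The standard deviation of their log2 ratios was 0.15, against a root mean square counting error of 0.08, and without *Rpl39l* these were 0.14 and 0.07. If some reads are copies of the same molecule, this counting error is too small and the intervals are too narrow. The share of such copies was not tested, so how much of the spread goes beyond counting is not known. The interval held the pooled ratio of the group for 52 genes, lay below it for 11 and above it for 10. What replicates would add to the spread cannot be told from merged columns.

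Ratios depended on how many reads a promoter had. When all protein-coding genes were cut into 10 groups of equal size by their promoter reads, the median ratio went from 0.17 in the group with the fewest reads to -0.15 in the group with the most. *Rpl39l* was the only member in the 2 groups with the fewest reads. For a like comparison, genes were taken whose reads over both genotypes lay between the 10th and 90th percentile of the members, 989 to 3904. The 57 members in this window had a median of -0.16 and the 9200 protein-coding genes in it a median of -0.10, with 75.1% of them below 0. The width between the 25th and 75th percentiles was 0.21 for the members and 0.20 for all genes in the window, and the standard deviations were 0.14 and 0.18. After a loess fit of ratio against mean count, the gene medians were -0.06 for the members and -0.0043 for all genes, and 50 of the 73 members lay below 0. *Rpl13a*, *Rpl18* and *Rpl38*, among the members with the most reads, then turned to values above 0 (0.08, 0.05 and 0.05).

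**Figure D2:**
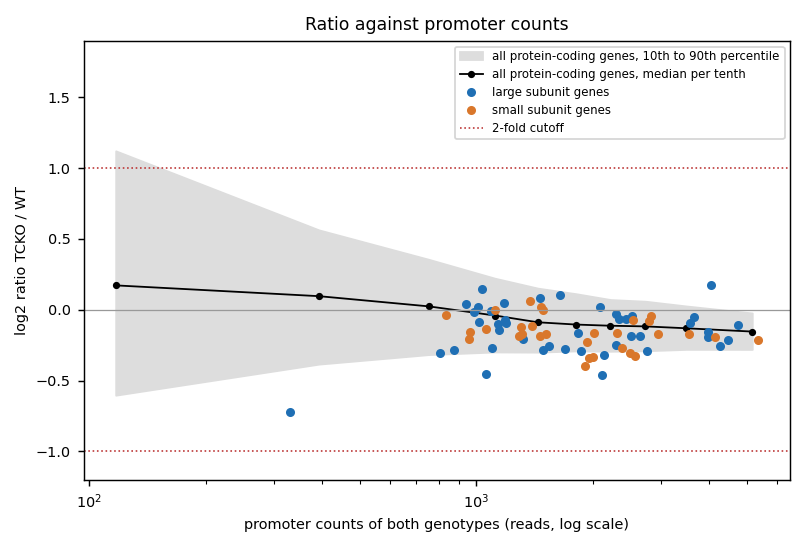
The x axis gives the reads of both genotypes over a gene's promoter regions on a log scale and the y axis the log2 ratio of TCKO to WT. The black line and grey band give the median and the 10th to 90th percentile of all protein-coding genes in 10 groups by reads, from 0.17 at the left to -0.15 at the right, and most of the 73 members (blue and orange) lie within the band, with *Rpl39l* below it.

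Among the 73 members the ratio was only weakly related to other properties of the promoters, given here as a description across genes that share both columns. Spearman's rho with the ratio was -0.12 for reads, 0.12 for the summed width of regions, -0.10 for GC content and -0.10 for the number of CpG sites in the 300 bases around the start. Regions were wide, with a median of 708 bp against 480 bp for all promoter regions, and their median GC content was 58.7% against 57.7%.

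A split within genes was larger. The 73 regions with the most reads of each gene held 91860 WT and 49936 TCKO counts (pooled ratio -0.16, -0.18 to -0.15). The 29 further regions, with a median width of 153 bp, held 4509 and 2784 counts (pooled ratio 0.02, -0.05 to 0.09). Median counts per region were 1129 and 593 for the former and 125 and 73 for the latter, so the further regions also had far fewer reads.

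Other genes of the translation machinery and other housekeeping complexes were compared in the same way. The 12 remaining genes of the cytosolic ribosome, which include the X-linked members and the stalk proteins, had a median of -0.10. Among them *Rplp1*, an acidic stalk protein gene, stood at -0.73 (977 counts in WT, 359 in TCKO, -0.90 to -0.55), close to *Rpl39l*, while *Rplp0* stood at 0.03 (1449 and 901) and *Rplp2* at -0.15 (1397 and 767). Medians were -0.13 for 78 genes of the mitochondrial ribosome, -0.12 for 17 translation factors and other growth-regulated messages, -0.07 for 20 genes of ribosome biogenesis, -0.10 for 38 proteasome genes and -0.13 for 36 genes of respiratory complex I. The median of all protein-coding genes was -0.09. The share of genes below 0 was 66.7% (8 of 12) for the remaining cytosolic ribosome genes and 74.4%, 88.2%, 80%, 78.9% and 83.3% for the following lists in the order given, against 66.3% of all protein-coding genes. In these lists together 0 genes were 2-fold lower, and 1 gene, *Mrpl55* of the mitochondrial ribosome, was 2-fold higher (72 and 229 counts, 2.37).

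**Figure D3:**
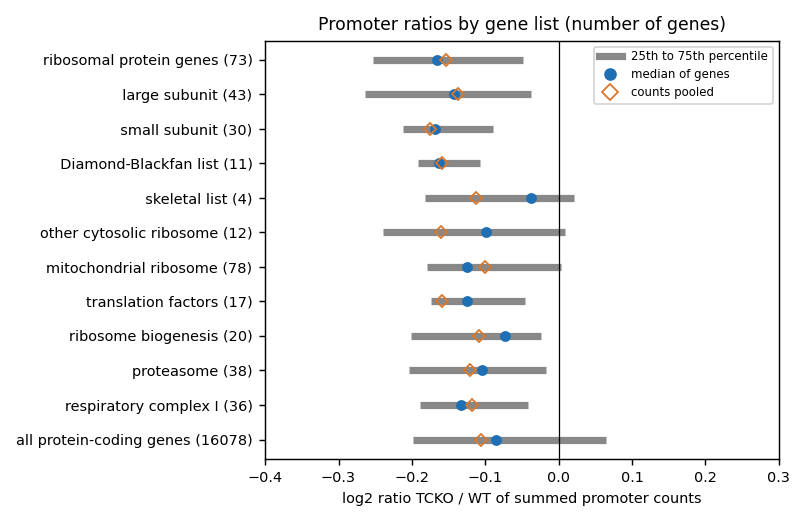
The x axis gives the log2 ratio of TCKO to WT promoter counts and the y axis the gene lists with the number of genes that had a promoter region. Circles are medians over genes, grey bars run from the 25th to the 75th percentile and diamonds pool the counts, and all medians lie between -0.17 and -0.04.

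As a benchmark of the scaling, the factor that would set the ribosomal protein promoter totals equal was 1.83 (1.81 to 1.85). The same factor over all promoter regions was 1.76. Total counts gave 1.64, DESeq2 size factors 1.57, TMM 1.56 and the depth of the background recovered from the peak lists 1.08. Equality of these promoters is an assumption that the merged columns cannot test. With the ribosomal protein factor, 7503 of all regions passed the 2-fold cutoff as lower in TCKO and 40063 as higher. With total counts these were 11552 and 31428, so that the lower regions made up 26.9% of the regions past the cutoff, against 15.8% with the ribosomal protein factor. With TMM the lower share was 33.7% and with DESeq2 size factors 32.7%. With the background depth, 50885 regions were lower and 10002 higher, which put the lower share at 83.6%, and 4 ribosomal protein genes were then 2-fold lower. The background depth may rest on fewer reads than the counts do. In the peak lists the highest number of reads over a summit was 175 in WT and 191 in TCKO. Whether duplicate reads were treated alike in lists and counts is not given, so this factor may not be a like measure.

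**Figure D4:**
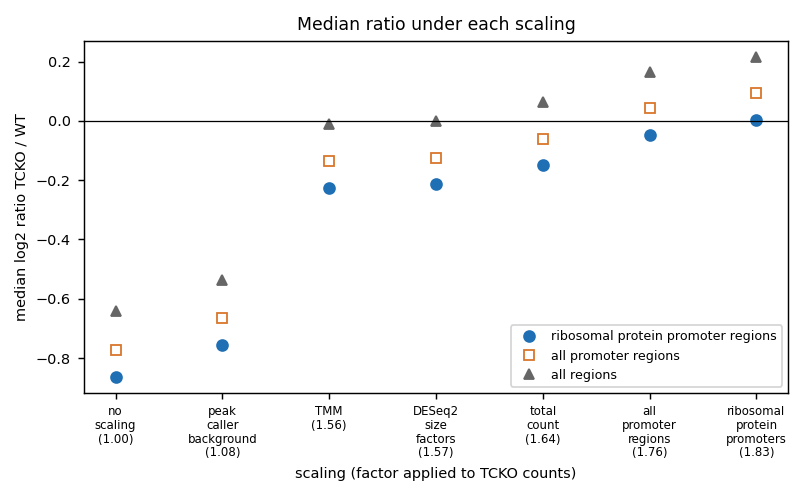
The x axis lists the scalings with the factor applied to TCKO counts and the y axis gives the median log2 ratio of TCKO to WT. Ribosomal protein promoter regions (circles) lie below all promoter regions (squares) and all regions (triangles) under each of the 7 factors. Each factor multiplies all TCKO counts alike, so this order is the same by construction and is no check on it. The median of the ribosomal protein regions is near 0 with their own factor of 1.83, because that factor sets their totals equal.

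The peak lists gave another measure, in which the caller sets each summit against the background of its own library. The fold is (pileup + 1) over (background + 1), so it still depends on depth, and the background at the strongest summit was lower in TCKO for all 73 genes (median log2 ratio -0.34). All 73 genes had a summit in both lists. At the region level 85 of 102 regions (83.3%) held a summit of both lists, 12 of WT alone and 5 of TCKO alone. For all 27613 promoter regions the share with both was 75.4%, and 5551 held a summit of WT alone and 1247 of TCKO alone. At the strongest summit of each gene the fold enrichment had a median of 8.07 in WT (3.88 to 16.9) and 7.52 in TCKO (2.91 to 14.2). It was lower in TCKO for 53 of 73 genes, with a median log2 ratio of -0.16, and the share over all genes is not given here. *Rpl34* had the highest enrichment in both lists, 16.9 and 14.2. Over regions with summits in both lists the median log2 ratio of the folds was -0.14 for ribosomal protein regions, -0.17 for all promoter regions and -0.19 for all regions. A lower fold in TCKO was thus general and not particular to these genes.

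**Figure D5:**
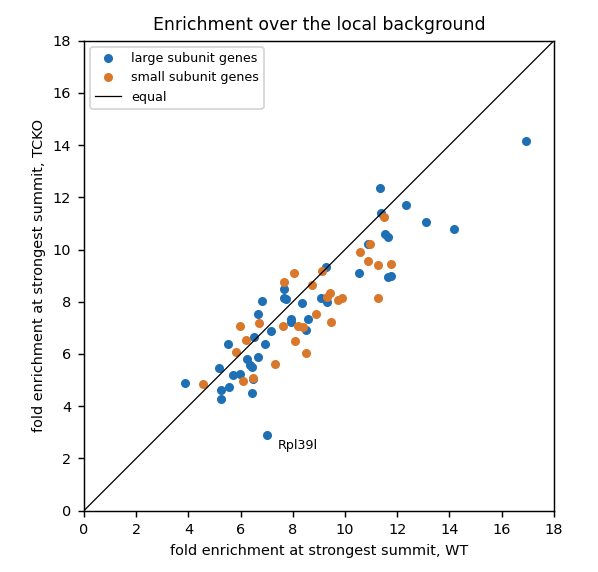
The x axis gives the fold enrichment over the local background at the strongest promoter summit in WT and the y axis the same in TCKO, with 1 point per gene and the line of equal values. Of the 73 genes 53 lie below the line, with no share of all genes to set beside it. *Rpl39l*, whose strongest TCKO summit is in its upstream region, lies farthest below (7.02 and 2.91).

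Summits were near the annotated start. The strongest summit lay within 100 bp of the start used for the sequences in 49 genes in WT and 53 in TCKO, with a median position of -31 bp and -39 bp. Between the lists the position differed by a median of 20 bp and by at most 50 bp in 61 genes. It differed by over 200 bp in 7 genes, *Rpl19*, *Rpl39l*, *Rpl4*, *Rpl7l1*, *Rps14*, *Rps19* and *Rps23*, among which *Rpl39l* had a single TCKO summit, in its upstream region. In *Rps19* it lay at -271 bp from the start in WT and at 45 bp in TCKO.

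Some of these promoter regions also lie at a start of a neighbouring gene. In 18 genes a promoter region also lay within 1 kb of a start of another protein-coding gene, such as *Med22* for *Rpl7a* and *Vps52* for *Rps18*. In some of the 18 the shared region was not the one over the main start. It lay at -3674 bp for *Rps24* with *Polr3a*, -7876 bp for *Rpl3* with *Syngr1* and -26793 bp for *Rps14* with *Ndst1*. For *Rps10* the partner was only a readthrough gene that includes it. The median ratio was -0.16 for these 18 genes and -0.17 for the other 55. Many ribosomal protein genes carry small nucleolar RNAs in their introns, and 26 members held 52 annotated ones. The median ratio was -0.19 for these 26 genes and -0.16 for the other 47. The annotation also names 275 pseudogenes after 53 of the members, processed copies that share transcript sequence with them. Since only uniquely mapped reads were counted, reads that match a copy equally well are not in the counts.

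Promoter sequence features were counted in the 300 bases from 250 before to 50 after the start, on both strands, in all 75 members and in all 21853 protein-coding genes. The ETS letters CCGGAAG were in 30.7% of the members and 11% of all promoters. The YY1 letters AAGATGGCG were in 6.67% and 1.81%, and the cyclic AMP response letters TGACGTCA in 6.67% and 2.48%. The SP letters GGGCGG were in 50.7% and 44.9%, the E-box letters CACGTG in 10.7% and 7.69%, the NRF1 letters GCGCATGCG in 1.33% and 2.48%, the NF-Y letters CCAAT in 26.7% and 38.6% and the TATA letters TATAAA in 10.7% and 12.7%. The AP-1 letters TGANTCA were in 6.67% and 6.8% and the Runt letters TGTGGTT in 5.33% and 4.9%. A pyrimidine run of at least 8 bases touched the 10 bases on either side of the start in 33.3% of the members and 13.3% of all promoters, and the first transcript base was C in 34.7% and 17.8%. The longest runs were those of *Rps24*, with 19 bases, and *Rpl32*, with 17.
The members had a median of 20 CpG sites in these 300 bases against 12 in all promoters, at the same median GC content of 55.7%, and a median observed to expected CpG ratio of 0.85 against 0.55. *Rpl39l* held 17 CpG sites and *Rpl3l*, which had no region, held 3, the fewest of the group.
Median ratios with and without a feature were close for some features. They lay further apart for some features held by only 5 to 8 genes, while the standard deviation over the members was 0.15. The median was -0.17 for the 23 genes with regions and ETS letters and -0.15 for the 50 without, and -0.14 for the 25 with a pyrimidine run and -0.17 for the 48 without. The 5 genes with YY1 letters, *Rpl18*, *Rpl23a*, *Rpl35a*, *Rpl7l1* and *Rps27*, had a median of -0.05 and the 68 others a median of -0.17. For the cyclic AMP response letters the medians were -0.05 in 5 genes and -0.17 in the 68 others, for the AP-1 letters -0.26 in 5 genes and -0.16 in the 68 others, and for the TATA letters -0.24 in 8 genes and -0.16 in the 65 others. These are descriptions, and a match of letters is not evidence that a factor was bound.

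The identity of the cells was checked at the promoters of marker genes. All 7 osteoblast markers (*Runx2*, *Sp7*, *Alpl*, *Col1a1*, *Col1a2*, *Ibsp* and *Bglap*) had promoter regions, with 93 to 2075 counts in WT and 51 to 1155 in TCKO, and their pooled ratio of -0.16 was close to that of the ribosomal protein genes. The 3 muscle markers *Myod1*, *Myf5* and *Myog* had no region. Of 4 macrophage or osteoclast markers 3 had regions and *Ptprc* had none, with 423 counts in WT and 369 in TCKO over the list, a pooled ratio of 0.52. The 3 endothelial markers *Pecam1*, *Cdh5* and *Kdr* summed to 708 counts in each column before scaling, a pooled ratio of 0.72. Promoters of these non-osteoblast markers had few reads. In the 3 groups of all protein-coding genes with the fewest reads, the median ratios were 0.17, 0.10 and 0.02, from fewest reads up. The part of such cells in the ribosomal protein values was not tested, and in merged bulk columns a change in the mix of cells cannot be told apart from a change within cells.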

How the data were processed

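Per the labels, the samples were primary osteoblasts, 2 per WT and TCKO genotype. According to the methods and the submitters' processing notes, the authors aligned reads with STAR 2.7.0e to GRCm38, kept unique reads with few mismatches, merged replicates and called peaks with MACS2. Removal of duplicate or mitochondrial reads and a shift of reads for the transposase are not given in the sources used here. The authors deposited raw read counts per region in 1 column per genotype. Their deposited peak lists gave a fold enrichment, a ratio to the local background, the −log10 of a p-value and q-value, and the summit offset.

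The members and lists were chosen with earlier results of these data known. Promoter regions had midpoints within 1 kb of a GENCODE M21 transcript start. The start used for sequences and distances was that of the coding transcript with the best support level, then the APPRIS principal isoform, then the longest. The ratio was log2 of (scaled TCKO count + 1) over (WT count + 1), with TCKO scaled to the WT total. Because the table held no replicates, the planned edgeR quasi-likelihood test was not run. Named genes were the 10 with the most reads, the 5 lowest and 5 highest ratios among genes with at least 200 counts in either genotype, genes without a region, like-named paralogs, and the Diamond-Blackfan and skeletal lists. Single values of some members are not reported here. Genes named for other properties were chosen after their values were seen. Pileup and background at each summit were solved from the fold and the p-value, and the lowest background over the shortest interval gave the background depth. Alternatives were TMM (edgeR 4.0.16), size factors (DESeq2 1.42.0), no scaling, background depth, loess (span 0.3), 20 GC bins, other folds, windows, transcripts and pseudocounts. All 21 chromosomes fitted the GRCm38 reference, and coordinates count from 1. Tools were R 4.3.3, Python 3.11.15, numpy 2.4.6, pandas 2.3.3, scipy 1.17.1 and statsmodels 0.14.6. Steps were tested on simulated data.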

Additional observations from a re-analysis of the deposited data

How the results depend on the processing

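No paired analysis was possible because each genotype has only a single merged column, and for that reason leaving out replicates and a DESeq2 test were not run. The median over ribosomal protein regions was -0.15 as reported, -0.22 with TMM, -0.21 with DESeq2 size factors, -0.86 without scaling, -0.76 with the background depth and -0.079 after loess. It kept its sign under these settings, and GC bins, added counts, other windows and other transcripts left it inside its interval of -0.19 to -0.08. Genes at least 2-fold lower numbered 14 without scaling, 4 with the background depth, and 1 (*Rpl39l*) with the region with most counts only or at a fold of 1.5. The shares of all protein-coding genes under these settings are not given here. With a 2 kb window 1 gene was 2-fold higher, *Rpl10l*, whose single region there had 90 counts in WT and 171 in TCKO (1.63). Of the 102 regions, those at least 2-fold lower numbered 19 without scaling, 7 with the background depth and 2 at a fold of 1.5, where 4 were higher. Of all 255864 regions, 65511 were lower without scaling and 50885 with the background depth. Medians without scaling and with the background depth were -0.82 and -0.71 for the other cytosolic ribosome genes and for proteasome genes, -0.84 and -0.73 for the mitochondrial ribosome and translation factors, -0.79 and -0.68 for ribosome biogenesis and -0.85 and -0.74 for complex I. With TMM they were -0.20 for the mitochondrial ribosome and translation factors, -0.21 for complex I, -0.15 for ribosome biogenesis, -0.18 for the proteasome and -0.17 for the other cytosolic ribosome genes. After loess they were -0.022 for the other cytosolic ribosome genes, -0.013 for the mitochondrial ribosome, -0.037 for translation factors, -0.027 for the proteasome, -0.029 for complex I, and 0.026, with the sign turned, for ribosome biogenesis. The cause was not tested. The factor of 1.83 and the difference between subunits stayed inside their intervals under the alternatives run. Merged columns and counting error alone limit every value here.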
